A study of Homo sapiens with 4 samples.

Results

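Expressed pseudogenes, other than those named as copies of ribosomal protein genes, were followed in LNCaP cells with and without forced expression of CRYM. A locus belonged to the group when at least 1 library listed its biotype as pseudogene, when it was at least 300 bp wide, and when its status was OK in all 4 libraries. It also had to reach 1 FPKM (a fragment count scaled by transcript length and by library depth) in at least 2 of the 4 libraries, and a symbol of the ribosomal protein form was left out. Of 10424 pseudogene loci of at least 300 bp, 257 met these limits, 27 of them were ribosomal protein copies by name, and 230 remained. They make up 230 of the 10091 loci tested in the series. The rule uses FPKM, so the levels of these loci are a description.

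LNCaP is an established prostate cancer line that was grown from a lymph node metastasis. Cells at passage 22 were transiently transfected with an empty control vector or with a vector expressing CRYM, the gene for mu-crystallin, which binds thyroid hormone in the cytosol. Each transfection used 2500 ng of plasmid and 12 µL of lipofection reagent in medium with serum, both groups alike, and RNA was taken 48 h later, with 2 libraries per group. GFP was watched during the experiment, and a sorting of transfected cells is not described, so each library may hold transfected and untransfected cells. The labels call the libraries biological replicates and do not mention separate cultures, so the p-values here describe the spread among these 4 libraries, which may be technical. In bulk RNA, fewer cells of a type and less RNA per cell cannot be told apart.

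Pseudogenes are gene copies that have lost, or are annotated as having lost, the ability to encode the original protein. A processed pseudogene arose when a messenger RNA was copied back into DNA and inserted elsewhere, without introns and usually without the promoter of its parent gene. An unprocessed pseudogene arose by duplication of genomic DNA, and a unitary pseudogene is a gene that decayed without leaving a functional copy. Genes with abundant messenger RNA, such as those for elongation factors, ferritin or lactate dehydrogenase, have left many processed copies in the human genome. A copy that differs little from its parent can receive reads made from the parent, so the sequence of a copy bears on what its FPKM counts.

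The CRYM locus, unnamed in the files and placed by its neighbours, stood at 1.17 and 0.977 FPKM with the empty vector and at 65.3 and 72.5 FPKM with the CRYM vector, a 64.1-fold ratio of means. Relative to the first empty vector library, depth read from the lowest values was 1.15 in the second, 0.842 in the first CRYM library and 1.07 in the second, and the absolute depth is unknown. Of 12 luminal prostate markers, the files name HOXB13 (128, 128, 110 and 114 FPKM) and SPDEF (86.9, 84.5, 46.8 and 48.0 FPKM). Among the markers of other cell types, the files name INSM1 (0 to 0.0138 FPKM), HLA-DRA (1.56 to 2.40 FPKM) and CLDN5 (0.136 to 0.276 FPKM). The part of the remaining cell types in the results below was not tested. Where 4 values are given in a row, the first pair are the empty vector libraries and the last pair the CRYM libraries, each in the order of replicates 1 and 2.

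The sequences below are from GENCODE 29 on GRCh38, whereas the coordinates of the files are on hg19. For each set a stretch of 60 bases was taken where the differences from the first sequence, added over all copies, are most numerous. A copy that matches the first sequence there can still differ from it elsewhere. The stretch lies within 1 coding exon of the parent gene or, in the SNX18P26 and KLF2P1 sets, within 1 exon of a pseudogene. Such differences are what a read of 50 bases has to cross to be told from the parent. Capitals mark bases that differ from the first sequence of the set. The LDHA set is shown because 2 of its 3 copies fell. It lies in LDHA at chr11:18403709-18403768 on the plus strand, LDHAP4 at chr9:14921668-14921727 on the minus strand, LDHAP5 at chr10:118932999-118933058 on the minus strand and LDHAP3 at chr2:41820352-41820411 on the plus strand.
LDHA: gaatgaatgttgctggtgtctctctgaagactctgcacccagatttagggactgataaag
LDHAP4: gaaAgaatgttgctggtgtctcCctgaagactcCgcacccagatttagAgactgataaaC
LDHAP5: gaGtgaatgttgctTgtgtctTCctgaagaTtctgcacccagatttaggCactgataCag
LDHAP3: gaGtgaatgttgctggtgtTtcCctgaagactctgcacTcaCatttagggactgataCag

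The HMGB1 set holds 2 copies called in opposite directions. It lies in HMGB1 at chr13:30461405-30461464 on the minus strand, HMGB1P5 at chr3:22382359-22382418 on the plus strand and HMGB1P14 at chr14:58285297-58285356 on the plus strand. HMGB1P5, which fell, carries the parent's 60 bases, and HMGB1P14, which rose, differs from them at 11 bases.
HMGB1: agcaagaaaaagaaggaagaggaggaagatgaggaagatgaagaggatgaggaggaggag
HMGB1P5: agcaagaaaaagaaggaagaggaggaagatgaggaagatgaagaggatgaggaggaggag
HMGB1P14: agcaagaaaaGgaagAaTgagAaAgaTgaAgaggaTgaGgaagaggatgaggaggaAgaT

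The FTH1 set gives the copy that rose, FTH1P20, and 1 that did not pass the threshold, FTH1P23. It lies in FTH1 at chr11:61964754-61964813 on the minus strand, FTH1P20 at chr2:180872894-180872953 on the minus strand and FTH1P23 at chr3:72929511-72929570 on the plus strand.
FTH1: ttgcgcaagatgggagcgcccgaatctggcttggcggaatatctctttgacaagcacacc
FTH1P20: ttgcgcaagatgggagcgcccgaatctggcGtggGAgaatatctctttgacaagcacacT
FTH1P23: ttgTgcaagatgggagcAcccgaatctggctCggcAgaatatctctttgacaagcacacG

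The EEF1A1 set stands for the gene with most copies here, none of which passed the threshold. It lies in EEF1A1 at chr6:73519885-73519944 on the minus strand, EEF1A1P5 at chr9:133019568-133019627 on the plus strand, EEF1A1P11 at chr1:96447012-96447071 on the plus strand and EEF1A1P16 at chr12:16990752-16990811 on the plus strand. EEF1A1P5 matches the parent at every one of these bases.
EEF1A1: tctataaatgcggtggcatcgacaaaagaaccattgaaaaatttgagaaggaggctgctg
EEF1A1P5: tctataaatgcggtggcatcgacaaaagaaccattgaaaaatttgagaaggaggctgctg
EEF1A1P11: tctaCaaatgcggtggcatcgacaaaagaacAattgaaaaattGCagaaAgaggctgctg
EEF1A1P16: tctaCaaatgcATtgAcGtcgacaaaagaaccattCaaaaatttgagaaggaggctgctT

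The SNX18 copies resemble each other more than they resemble SNX18, so SNX18P26 is the first sequence of that set. It lies in SNX18P26 at chr13:18807816-18807875 on the minus strand, SNX18P13 at chr21:13906282-13906341 on the minus strand and SNX18P7 at chr9:33576397-33576456 on the plus strand.
SNX18P26: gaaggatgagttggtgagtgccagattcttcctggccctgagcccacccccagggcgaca
SNX18P13: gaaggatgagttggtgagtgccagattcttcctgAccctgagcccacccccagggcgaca
SNX18P7: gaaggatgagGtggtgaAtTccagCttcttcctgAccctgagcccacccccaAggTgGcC

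KLF2P1 and KLF2P4 are a pair of related copies that both rose, and differ at 3 of the 60 bases. The stretch lies in KLF2P1 at chr2:130038108-130038167 on the plus strand and KLF2P4 at chr2:131299235-131299294 on the minus strand.
KLF2P1: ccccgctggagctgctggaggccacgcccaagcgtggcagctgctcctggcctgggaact
KLF2P4: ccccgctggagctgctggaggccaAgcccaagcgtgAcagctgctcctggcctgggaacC

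The 230 pseudogenes lay on 23 chromosomes, with 24 on chromosome 1 and 19 each on chromosomes 7 and 9. Their width ran from 301 to 86461 bp with a median of 693 bp, and 162 were narrower than 1000 bp. By Ensembl identifier, 203 matched a gene of GENCODE 29. Of these, 165 are processed pseudogenes there, 17 transcribed processed, 9 unprocessed, 6 transcribed unprocessed and 2 unitary (TSSK5P1 and OR13E1P). The other four are not pseudogenes in that release: SRGAP2C and HNRNPA1P48 are protein coding, AC122129.1 is antisense and RP11-262H14.5 is a lincRNA. A match to a coding gene on either strand was found for 190, with a median identity of 92.9%, and 173 of these matches covered at least 50% of the copy. At 63 loci the identity was 95% or more, some of them, such as HTATSF1P2 in NQO2, because the match is the gene that overlaps the locus.

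Most of these loci were expressed at low levels. The median of the mean FPKM over the 4 libraries was 1.76, against 11.5 over all tested loci, and 14 of 230 had a mean of at least 10 FPKM. In all 4 libraries 146 reached 1 FPKM, 32 did so in 3 and 52 in 2. Among the last, 25 reached the limit through the CRYM pair alone and 9 through the empty vector pair alone, so these 34 had to differ between the groups to be included, and no count over the 230 supports a direction. Just inside the limit were RP11-321A17.3, RP11-162A23.5 and GOT2P2, whose second highest values were 1.01, 1.03 and 1.03 FPKM. Just outside were NONOP2, KRT8P46 and RP5-886K2.1, at 0.992, 0.992 and 0.988 FPKM. Read as 2 SD of counting error either way, the deposited confidence intervals imply a median of 44 to 60 fragments per locus in each library, and a mean under 20 at 52 loci.

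The level in 1 library was not always close to that in its partner. The median fold between the 2 empty vector libraries was 1.17 and between the 2 CRYM libraries 1.14, while 35 loci differed 2-fold or more within a group or had a library at 0. The highest mean belonged to RP11-529H20.3, a copy of PTMA (prothymosin alpha) of 322 bp, with 1194, 358, 51200 and 13.8 FPKM. Its intervals imply 52, 51, 37 and 34 fragments, and its groups overlap. RP11-58A11.2, a copy of RPL34, had 0.375, 49.5, 0.968 and 1.25 FPKM, with 1 empty vector library far above the other three. MTND6P4, a nuclear copy of the mitochondrial gene for a complex I subunit, had 142.3, 165.6, 172.8 and 166.1 FPKM, with the lower CRYM value barely above the higher control (adjusted p = 0.328). AC061975.1 had 86.1, 95.1, 155 and 121 FPKM (adjusted p = 0.0742, limma). NACA3P, a copy of NACA, whose protein binds nascent chains at the ribosome, had 16.8, 15.7, 17.8 and 17.6 FPKM (log2 difference 0.12 ± 0.05 SE, adjusted p = 0.164).

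Differences between the groups were tested with limma on log2(FPKM + 1) over all 10091 loci, and a log2 difference below is CRYM minus empty vector on that scale, which understates the change of low loci. Of the 230 pseudogenes, 39 were higher with CRYM and 14 lower at an adjusted p under 0.05, and 177 did not pass. Over all tested loci, 15.7% were higher and 17.7% lower (33.3% in either direction), against 17.0% and 6.09% of the pseudogenes. Among the 2989 tested loci with a mean under 5 FPKM, a range that holds 197 of the 230, 17.8% were higher and 6.93% lower, shares close to those of the pseudogenes. The median log2 difference was 0.14 over the pseudogenes, 0.14 over the loci under 5 FPKM and 0.01 over all tested loci. Quantile normalization gave 25 higher and 16 lower pseudogenes, 61% higher among the calls against 73.6% here, and a median of 0.00.

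The groups did not overlap at 102 of the 230 pseudogenes with CRYM higher and at 32 with CRYM lower. For all tested loci this was so at 37% and 35.3%. Among the 2989 tested loci with a mean under 5 FPKM it was so at 1392 and 600, so the lean toward higher is not particular to pseudogenes. Without a test, lincRNA loci showed 22.4% higher and 6% lower, protein-coding loci named in the files 17.4% and 23.4%, and 3 and 2 of the 27 ribosomal protein copies were called. Among the 146 pseudogenes with at least 1 FPKM in every library, 27 were higher and 8 lower. The calls rest on all 4 libraries: with any 1 left out limma called 0 of the tested loci, the lowest adjusted p of a pseudogene lay between 0.0602 and 0.0713, and 57 to 68 pseudogenes had an unadjusted p under 0.05, against 80 with all 4. Each of the 53 called pseudogenes kept its direction in those fits and in 3 other scalings of the libraries. Leaving out 1 library cannot turn the sign where the groups do not overlap. Of the 53 calls, 27 held with the libraries rescaled to the same total, 37 under quantile normalization and 19 without the filter on low FPKM.

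**Figure D1:**
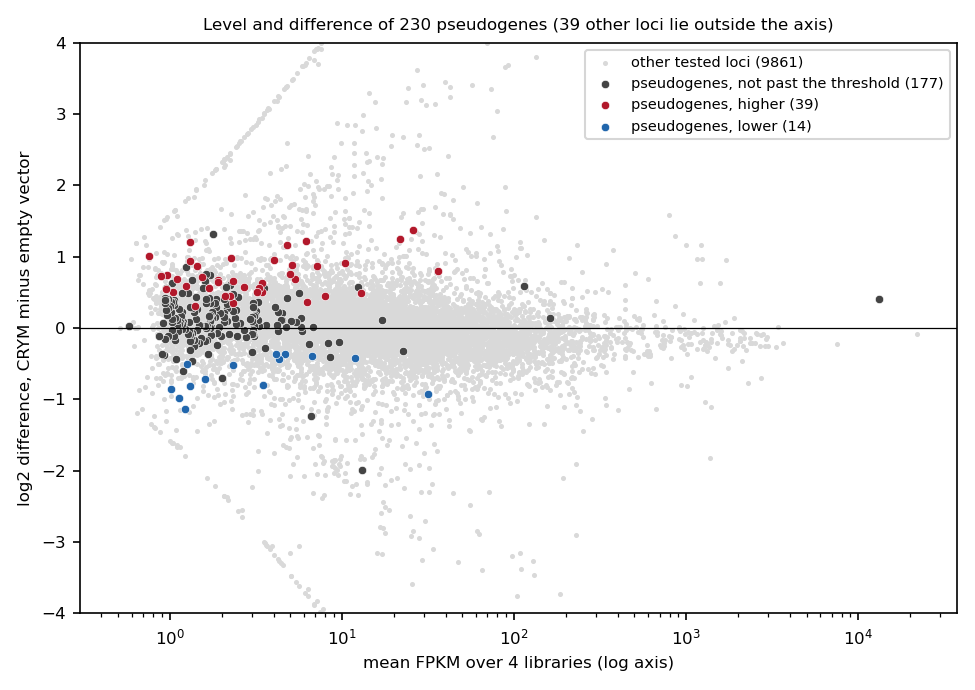
Mean FPKM over the 4 libraries (log axis) against the log2 difference on the log2(FPKM + 1) scale, CRYM minus empty vector, for 230 pseudogenes (large points, coloured by call) and 9861 other tested loci (small grey points). Of the pseudogenes 39 are higher, 14 lower and 177 not past the threshold, and 197 have a mean under 5 FPKM; 39 of the other loci lie beyond a log2 difference of 4.

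Copies of metabolic genes included the most abundant of the pseudogenes that fell. LDHA encodes the lactate dehydrogenase subunit that converts pyruvate to lactate. LDHAP4 (chr9:14921335-14922332, hg19) had 41.9, 41.5, 20.6 and 22.3 FPKM, so both CRYM libraries were far below both controls, with a mean 0.514 of theirs. The log2 difference was -0.93 ± 0.05 (SE, n = 2 per group, adjusted p = 0.00728), and the intervals imply 1108 to 3181 fragments. LDHAP5 (chr10:120692186-120692807) had 3.15, 2.69, 1.76 and 1.68 FPKM and also fell, by 0.52 ± 0.09 on the log2 scale (adjusted p = 0.0335). LDHAP3 had 1.84, 1.47, 0.619 and 0.865 FPKM, likewise without overlap, and a log2 difference of -0.61 ± 0.13 that did not pass (adjusted p = 0.0522). LDHAP3 reached the limit through the empty vector pair alone, so its lower values with CRYM follow from the rule. The copies are 95.7%, 93.8% and 92.2% identical to LDHA, and 15.9%, 14.1% and 6.67% of their 50-base stretches occur in transcripts of other genes. LDHA itself is not named in the files and was not followed here.

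Ferritin stores iron in a shell of heavy (FTH1) and light (FTL) chains. FTH1P20 (chr2:181737594-181738141) had 5.69, 3.94, 9.33 and 9.72 FPKM, with both CRYM libraries above both controls. It rose by a log2 difference of 0.87 ± 0.18 (adjusted p = 0.0488), close to the threshold. FTH1P8, FTH1P16 and FTH1P23 did not pass, with log2 differences of 0.23, 0.26 and -0.26, and FTH1P8 and FTH1P23 overlap between the groups, while FTH1P16 was included through the CRYM pair alone. In GENCODE 29 FTH1P20 lies within SCHLAP1, a long noncoding RNA gene, on the opposite strand. FTLP14, a copy of the light chain gene with 83.1% identity, had 1.56, 1.36, 1.09 and 1.23 FPKM and did not pass (adjusted p = 0.188). FTL is named in the files, and stood at 373, 388, 495 and 508 FPKM, a rise of 0.40 ± 0.03 on the log2 scale (adjusted p = 0.0121). The copy and the light chain gene thus had log2 differences of opposite sign, -0.19 and 0.40, and the difference between them was not tested. FTLP14 lies within CDH1 on the same strand in GENCODE 29. The locus around FTLP14 in the files had 132, 134, 117 and 116 FPKM and a log2 difference of -0.19 (adjusted p = 0.0176, limma). By symbol, 9 pseudogenes fell into the glycolysis and metabolism group, of which 1 was higher and 2 lower, with a median of -0.19.

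Copies of genes for RNA-binding proteins numbered 9, of which 2 rose and none fell (limma, 3 with an unadjusted p under 0.05), with a median log2 difference of 0.34. HNRNPA1 and HNRNPC encode abundant nuclear proteins that bind pre-messenger RNA. HNRNPA1P73 (chr7:27368226-27369153) had 0.164, 0.157, 1.36 and 1.32 FPKM, an 8.38-fold ratio of means and a log2 difference of 1.01 ± 0.07 (adjusted p = 0.00949). It was among the 25 loci that reached the limit through the CRYM pair alone. The intervals imply 10, 11, 64 and 83 fragments. HNRNPA1P48, HNRNPA1P1 and HNRNPA1P49 lay between 1.31 and 1.95 FPKM in every library and had log2 differences of 0.01, 0.15 and 0.04. HNRNPA1P73 has the lowest identity to HNRNPA1, at 86.6%, with 1.14% of its 50-base stretches found elsewhere. HNRNPA1P49 stands close to it at 87.8% and 0.936%, HNRNPA1P1 at 90.6% and 3.24%, and HNRNPA1P48 at 99.3% and 51.6%. HNRNPCP7 (0.674, 0.784, 2.02 and 2.27 FPKM) rose by 0.86 ± 0.08 (adjusted p = 0.015), and also reached the limit through the CRYM pair alone. HNRNPCP2, at 98.8% identity the closer copy of HNRNPC, had 11.5, 9.20, 7.61 and 10.33 FPKM, and its groups overlap.

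Of 10 copies of chromatin and cell cycle genes, 1 rose and 1 fell. HMGB1 encodes a protein that bends DNA. HMGB1P5 (chr3:22423310-22424420) had 8.11, 7.41, 5.47 and 5.87 FPKM and fell by 0.39 ± 0.07 (adjusted p = 0.0363). HMGB1P14 (chr14:58751491-58752116) had 0.856, 1.01, 2.39 and 1.93 FPKM and rose by 0.71 ± 0.11 (adjusted p = 0.0312). HMGB1P5 is 97.9% and HMGB1P14 87.9% identical to HMGB1, and 66.3% and 0% of their 50-base stretches occur in other transcripts. HMGB1P14 lies in a longer unnamed locus that also rose, by 0.62 (adjusted p = 0.0481). HMGB1P4 had 1.72, 2.85, 7.95 and 1.53 FPKM, with 1 CRYM library above the other three.

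The translation factor group held 10 copies, 8 of them of EEF1A1, the factor that brings aminoacyl-tRNA to the ribosome. None of the 8 passed the threshold in limma, 0 had an unadjusted p under 0.05, and their log2 differences ran from -0.17 to 0.10 with standard errors of 0.07 to 0.12. Under quantile normalization all 8 were negative, from -0.30 to -0.06. EEF1A1P11, the highest, had 5.93, 5.52, 5.58 and 6.05 FPKM. The 8 copies are 91.9% to 99.7% identical to EEF1A1 and share 9.45% to 89.6% of their 50-base stretches with other transcripts. EIF4HP2, a copy of the gene for initiation factor 4H, rose in the same group, from 1.48 and 1.74 to 2.68 and 2.44 FPKM (log2 difference 0.45 ± 0.09, adjusted p = 0.0437).

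Copies of chaperone and protein turnover genes numbered 7, and 2 of them fell. PPIAP9, a copy of the gene for cyclophilin A, a prolyl isomerase, had 5.17, 5.02, 3.50 and 3.53 FPKM and fell by 0.43 ± 0.05 (adjusted p = 0.0169), whereas PPIAP3 overlapped between the groups. HSP90AA6P, a copy of the gene for a cytosolic HSP90 chaperone, had 1.61, 2.03, 0.587 and 0.284 FPKM, a log2 difference of -0.98 ± 0.16 (adjusted p = 0.0338). Its intervals imply 7, 11, 5 and 2 fragments, so counting error is large there on that reading. HSP90AA6P reached the limit through the empty vector pair alone. SKP1P1, a copy of the gene for a ubiquitin ligase subunit, had 2.05, 19.5, 2.16 and 2.58 FPKM, and 97.3% of its 50-base stretches occur in other transcripts.

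Of 7 copies of respiratory chain genes, 1 rose and 1 fell. MTND4P20, a nuclear copy of the mitochondrial ND4 gene with 71.3% identity, had 10.4, 10.9, 14.8 and 15.9 FPKM and rose by 0.49 ± 0.06 (adjusted p = 0.0181). COX5BP6, a copy of a cytochrome c oxidase subunit gene, had 1.57, 1.62, 0.342 and 0.520 FPKM (log2 difference -0.86 ± 0.10, adjusted p = 0.0182), on intervals that imply 6, 7, 1 and 2 fragments. It too was included through the empty vector pair alone. CYCSP24, CYCSP34 and AC006989.2 match CYCS, the gene for cytochrome c, and did not pass, with log2 differences of 0.47, 0.41 and 0.06. Among copies of small GTPase and signalling genes, RAB11FIP1P1 (3.30, 3.55, 6.15 and 6.86 FPKM) rose by 0.76 ± 0.08 (adjusted p = 0.0159), while CALM2P2 did not pass. RAB11FIP1P1 lies opposite FTX, a noncoding RNA gene whose transcripts hold 60.1% of its 50-base stretches. Cytoskeletal copies PFN1P5 and TUBB8P1 had log2 differences of 0.35 and 0.40 without passing (adjusted p = 0.106 and 0.114).

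Copies of SNX18, a sorting nexin gene of the endocytic pathway, had positive log2 differences at all 5 loci measured. SNX18P7 (1.82, 2.13, 3.41 and 3.45 FPKM) and SNX18P26 (2.85, 2.48, 4.46 and 3.89 FPKM) rose by 0.58 ± 0.08 and 0.50 ± 0.10 (adjusted p = 0.0238 and 0.0444). SNX18P13 had 2.23, 1.70, 2.66 and 3.34 FPKM and did not pass (0.43 ± 0.15, adjusted p = 0.129). SNX18P16 (26.4, 25.9, 48.0 and 44.3 FPKM) and SNX18P15 (6.74, 7.16, 14.7 and 13.1 FPKM) rose by 0.80 ± 0.05 and 0.90 ± 0.08 (adjusted p = 0.009 and 0.0128). These last lie on chromosome 1 within 1 unnamed locus, which had 25.8, 23.2, 33.8 and 37.2 FPKM and rose by 0.52, so they are not independent of each other. SNX18 itself had 7.73, 7.73, 7.28 and 7.61 FPKM and a log2 difference of -0.05 (adjusted p = 0.448). The 3 copies with a GENCODE sequence are 74.0% to 75.4% identical to SNX18, and SNX18P26 and SNX18P13 are 97.5% identical to each other, so reads of those copies may be shared between them.

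KLF2P4 and KLF2P1, named as copies of the gene for the zinc finger factor KLF2, both rose. KLF2P4 (chr2:132056793-132058017) had 0.369, 0.434, 2.15 and 2.27 FPKM, a 5.52-fold ratio of means and a log2 difference of 1.20 ± 0.07 (adjusted p = 0.00796). KLF2P1 (chr2:130794531-130795995) had 0.671, 0.491, 1.91 and 2.14 FPKM and a log2 difference of 0.94 ± 0.10 (adjusted p = 0.0172). Over 550 bases the pair is 97.3% identical, and in both the gene sharing most 50-base stretches is FAR2P4, another pseudogene. Both loci reached the limit through the CRYM pair alone. KLF2P1 matches KLF2 at 74.6% identity, and for KLF2P4 the best coding match was a stretch of NDUFV3 over 36.7% of its length.

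Several loci named after clones rose by more than 1 on the log2 scale. RP11-810K23.10 (chr15:21098712-21099309) had 15.2, 12.7, 35.9 and 39.2 FPKM, a 2.69-fold ratio and a log2 difference of 1.37 ± 0.11 (adjusted p = 0.0115). RP11-810K23.9 (chr15:21095535-21095935), within the same stretch of chromosome 15, had 13.9, 11.1, 29.4 and 32.2 FPKM and rose by 1.25 ± 0.14 (adjusted p = 0.0175). Neither shares a 50-base stretch with transcripts of other genes. AC009299.4, on chromosome 2, likewise without shared stretches or a coding match, had 3.34, 3.28, 9.35 and 8.67 FPKM and rose by 1.22 ± 0.06 (adjusted p = 0.00624). RP11-32B5.1 (chr15:21936560-21938111), a copy of the kinase gene PAK2 with 95.9% identity, had 2.66, 2.47, 6.80 and 7.21 FPKM, a log2 difference of 1.17 ± 0.06 (adjusted p = 0.00686). In all of these the CRYM libraries were more than 2-fold above the empty vector libraries in the ratio of means. Smaller rises were seen at DSTNP1, a copy of the gene for the actin-severing protein destrin (0.95), at RP1-34B20.4, a copy of RPS10 (0.98), and at RP11-460N20.4, an unprocessed copy of SUMF2 (0.89).

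Among the falls, RP11-701P16.1 (chr4:185719450-185720200) had 1.96, 1.93, 0.824 and 0.539 FPKM, a log2 difference of -0.81 ± 0.12 (adjusted p = 0.0262), and reached the limit through the empty vector pair alone. It lies on the same strand within ACSL1, the gene for a long-chain acyl-CoA synthetase, and the locus around it in the files had 158, 142, 87.6 and 86.5 FPKM. RP13-15M17.1, a copy of RPL9 within SLC25A33 on the same strand, had 4.35, 5.08, 2.103 and 2.43 FPKM and fell by 0.81 ± 0.11 (adjusted p = 0.0225). The locus around it fell by 1.33, from 24.5 and 24.7 to 9.24 and 9.05 FPKM. OR7E47P, an olfactory receptor pseudogene, had 1.98, 2.51, 0.882 and 1.07 FPKM (log2 difference -0.71 ± 0.12, adjusted p = 0.036). RP11-112J1.1, a copy of RPL31, had 2.07, 2.05, 0.393 and 0.382 FPKM, a log2 difference of -1.14, yet its intervals imply 0, 1, 2 and 0 fragments, and it too had to be lower with CRYM to be included. RP11-22B23.2, whose best coding match is WASHC1, and RPSAP53, a copy of the gene for the small-subunit protein RPSA, fell by 0.50 and 0.42, the first again included through the empty vector pair alone.

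**Figure D2:**
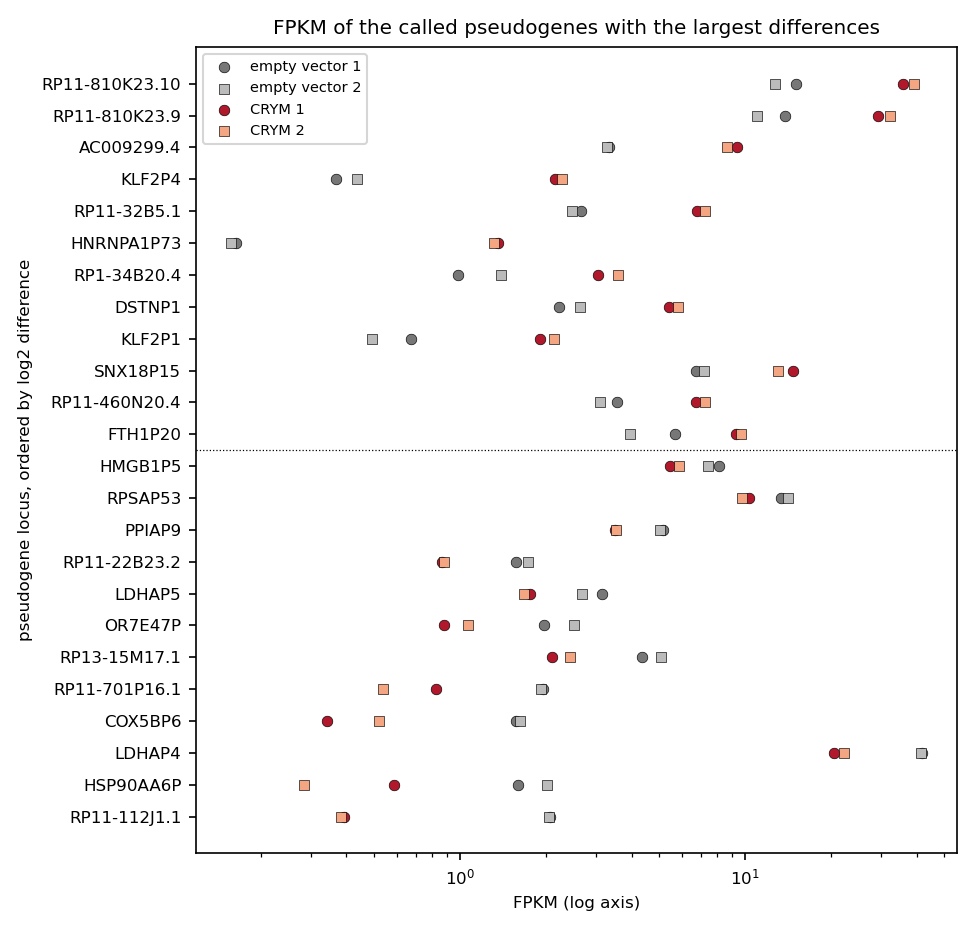
FPKM (log axis) in each of the 4 libraries for the 12 largest rises and 12 largest falls among called pseudogenes without a library at 0, ordered by log2 difference and separated by the dotted line. Each point is 1 library; in every line the 2 CRYM points (red shades) lie on 1 side of the 2 empty vector points (grey shades), as the choice of these loci requires.

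Grouped by the coding gene that each copy matches best over at least 50% of its length, 64 pseudogenes fell into 22 genes with at least 2 copies. Copies of 1 gene did not all take the same call. Of the 4 copies matching HMGB1, 1 rose and 1 fell, and of the 4 matching RPL31, 1 fell while the other three did not pass. The 4 copies of PTMA, the 3 of CYCS and the 3 of RPL17 held no call. The medians of the LDHA and SNX18 copies were -0.61 and 0.50, and the first is the value of LDHAP3, which entered through the empty vector pair alone.

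**Figure D3:**
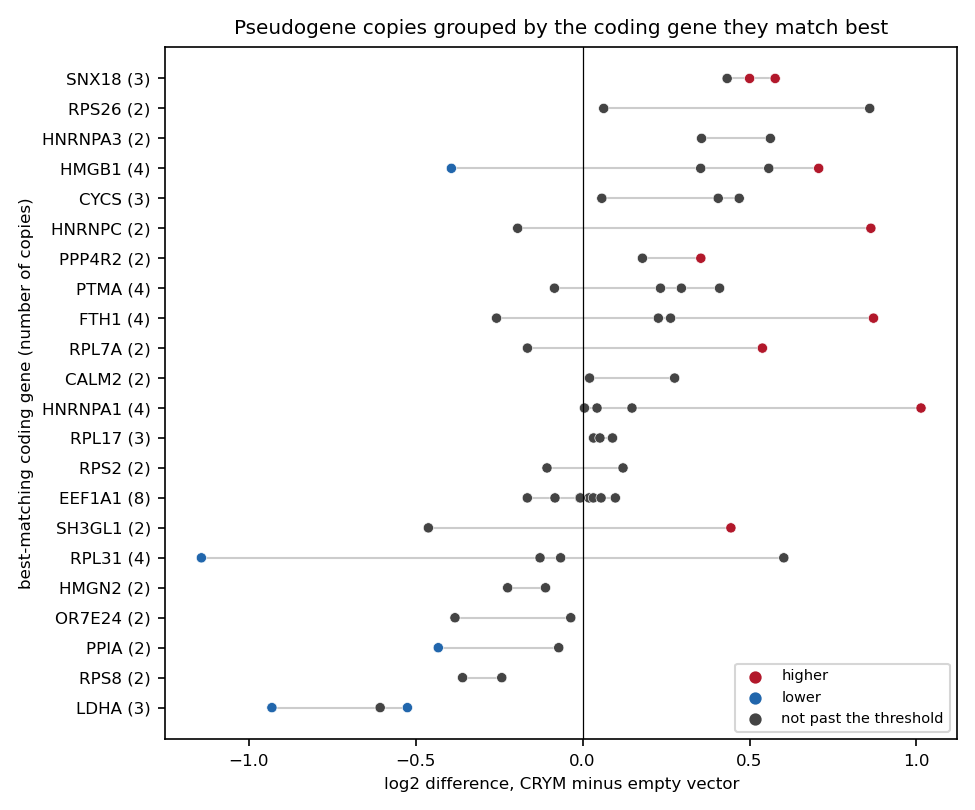
Log2 difference (log2(FPKM + 1) scale, CRYM minus empty vector) of 64 pseudogene copies, each point 1 copy, in lines by the coding gene they match best, with the number of copies in brackets. The 3 LDHA copies lie below 0, the 3 SNX18 copies above 0 and the 8 EEF1A1 copies between -0.17 and 0.10.

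The symbols did not remove every ribosomal protein copy. The best coding match was a ribosomal protein gene at 38 of the 230 loci, 34 of them named after clones, and 29 such genes were involved. Of these 38, 3 were higher and 5 lower, with a median log2 difference of -0.07. RPLP0P6 (4.74, 4.82, 3.60 and 3.36 FPKM) and AC016739.2, a copy of RPLP1 (5.73, 5.09, 3.91 and 3.99 FPKM), both fell by 0.37. RPLP1 itself had 1349, 1590, 1146 and 1198 FPKM and did not pass (log2 difference -0.32, adjusted p = 0.104). AC010733.5, a copy of RPS12, had 0.883, 0.296, 1.06 and 1.86 FPKM and a log2 difference of 0.64 that did not pass, and was included through the CRYM pair alone. RPS12 had 2407, 2223, 1946 and 1925 FPKM and fell by 0.26 (adjusted p = 0.0453).

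Matched coding genes could seldom be read beside the pseudogenes, because the files name 13 of the 131. The best match is not always a parent, as at OR13E1P, where it is the overlapping gene TMEM8B. TUBB4B, which encodes a beta tubulin, fell from 314 and 283 to 197 and 203 FPKM (log2 difference -0.57 ± 0.07, adjusted p = 0.0186). TUBB8P1, named after TUBB8, has TUBB4B as its best coding match, at 81.9% identity with 0% of its 50-base stretches in other transcripts. TUBB8P1 was included through the CRYM pair alone and had 0.958, 0.610, 1.35 and 1.32 FPKM. RNF5, a ubiquitin ligase gene, had 35.7, 32.7, 38.1 and 36.1 FPKM and its copy RNF5P1 3.85, 2.67, 2.94 and 2.83 FPKM, and neither passed. NDUFS5, BEND3 and CSGALNACT2 did not pass, nor did their copies RP11-321A17.3, RP11-564C4.6 and RP3-341D10.1.

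Many of the pseudogenes lie inside other genes. In GENCODE 29, 99 of the 203 matched loci lie within another gene, 40 on its strand and 59 on the opposite strand. In the files, 61 pseudogenes lie inside another tested locus, 58 of which are unnamed. Of the 15 called pseudogenes among them, 11 lay in a locus called in the same direction and 4 in a locus that did not pass, and none in one called in the opposite direction. For comparison, 15.7% of all tested loci were called higher and 17.7% lower. Among the 46 pseudogenes inside a tested locus that did not pass, some also lay in a called locus, such as AC006539.3, FTH1P16 and HNRNPA3P9. SNX18P15 and SNX18P16, both among the 11, lie in the same containing locus, so the 61 have 60 distinct ones. Across the 61, the sign was the same at 41, and the log2 differences of pseudogene and containing locus had a Pearson correlation of 0.51 and a Spearman correlation of 0.58. These points share libraries and possibly reads, on the same strand or, where strand is not used, on either, so the correlation is a description. RP11-410L14.1, a copy of UBE2V1, rose by 0.75 within RP11-410L14.2, which rose by 0.85, and was included through the CRYM pair alone. The locus around COX5BP6 had 15.0, 15.3, 15.9 and 16.1 FPKM. Of the 162 pseudogenes that overlap no tested locus, 27 were higher and 10 lower, shares of 16.7% and 6.17%.

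**Figure D4:**
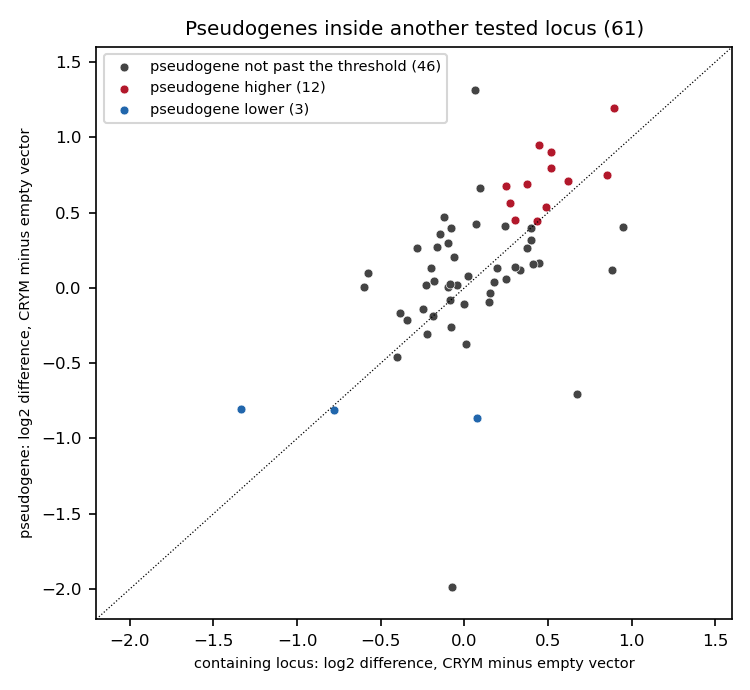
Log2 difference of 61 pseudogenes (vertical) against that of the tested locus that contains them (horizontal), both CRYM minus empty vector on the log2(FPKM + 1) scale, coloured by the call of the pseudogene, with the line of equality dotted. Of the 15 called pseudogenes, 11 lie in a locus called in the same direction, 2 of them in 1 shared locus. Over all tested loci, 15.7% were called higher and 17.7% lower. The lowest point is RP11-58A11.2, which did not pass.

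Shared sequence varied widely. A median of 14.02% of the 50-base stretches of a pseudogene transcript occurred in transcripts of other genes, with none at 44 loci, under 10% at 91 and over 50% at 42. At 9 loci every stretch occurred elsewhere, among them OR13E1P, which lies within a transcript of TMEM8B on the opposite strand, and RP11-281O15.7, within ZNF354C. Both rose, OR13E1P, included through the CRYM pair alone, by 0.59 and RP11-281O15.7 by 0.44, and their reads cannot be told from those of the overlapping genes unless strand was used. Among the 91 with under 10% shared, 18 were higher and 4 lower (19.8% and 4.4%), with a median of 0.22. Among the 70 with 10% to 50% shared, 9 were higher and 7 lower (12.9% and 10%). Among the 42 with more, it was 6 and 3 (14.3% and 7.14%). The shares over all tested loci with a mean under 5 FPKM were 17.8% and 6.93%. Across the 203, the share had a Pearson correlation of -0.09 with the absolute log2 difference, given as a description. How the authors' counting treated reads that fit several places is not stated in the labels or headers, so its part in these values was not tested.

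**Figure D5:**
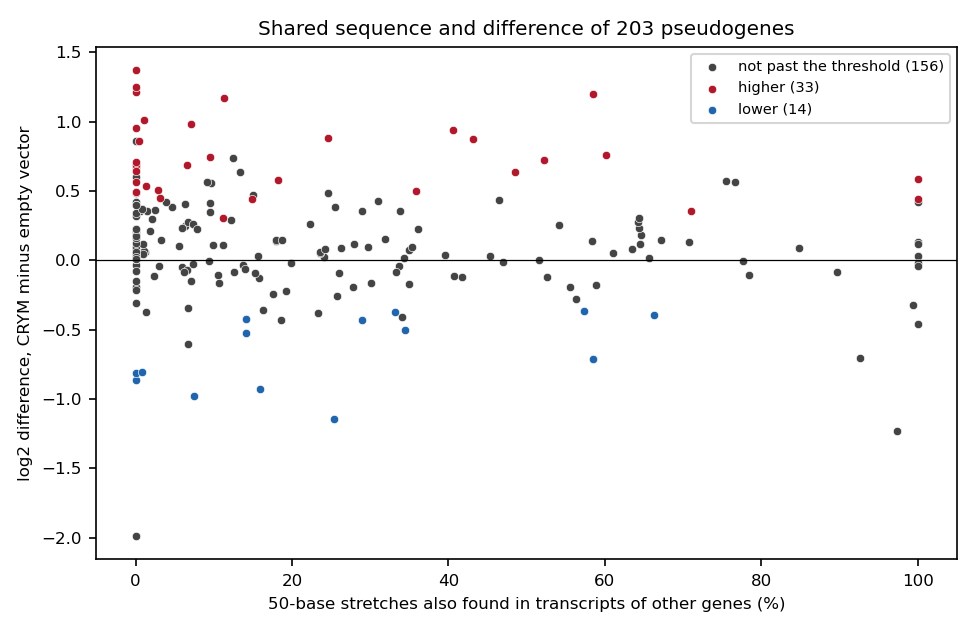
Share of the 50-base stretches of each pseudogene that also occur in transcripts of other genes (horizontal, percent, GENCODE 29) against its log2 difference, CRYM minus empty vector, for 203 pseudogenes coloured by call. Called loci occur along the whole axis, with 18 higher and 4 lower among the 91 under 10% (19.8% and 4.4%). Over all tested loci with a mean under 5 FPKM the shares were 17.8% and 6.93%.

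Of the 27 pseudogenes without a GENCODE 29 match, 6 were higher and none lower at an adjusted p under 0.05 by limma, with 13 at an unadjusted p under 0.05. The shares are 22.2% and 0%, against 17.8% and 6.93% of the tested loci with a mean under 5 FPKM. Besides SNX18P15 and SNX18P16, which share 1 containing locus, the 6 include RP11-566K19.8 and AC135776.1. The others are RP11-381O7.4 (2.36, 2.58, 3.88 and 4.41 FPKM) and RP11-381O7.6 (1.67, 1.495, 2.97 and 3.18 FPKM), which lie close together on chromosome 9. The log2 differences of RP11-381O7.4, RP11-381O7.6, RP11-566K19.8 and AC135776.1 were 0.57, 0.66, 0.51 and 0.37.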

How the data were processed

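Single reads of 50 bp from a stranded mRNA library kit were quantified in 4 libraries, 2 per group. The deposited values are FPKM per locus with confidence bounds and a status flag, per the file headers. TopHat2 2.1.1, Bowtie2 2.2.9, Cufflinks 2.2.1, Cuffdiff and the builds hg19 and GRCh37 are the tools and references named, per the submitters' processing notes; their roles are not stated. Whether strand was used, and how reads fitting several places were counted, was not given in the sources used here, so overlapping genes and close copies may exchange reads.

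The 4 tables were joined by identical position, counted from 1, giving 52318 loci. The test took loci whose status was OK in every library and whose FPKM reached 1 in 2 or more (10091, with 45 left out by status). limma 3.58.1 (R 4.3.3) was run on log2(FPKM + 1) with a variance trend, two-sided, with Benjamini-Hochberg adjustment over all loci at 0.05. A fold is a ratio of mean FPKM. The fit was tested on simulated data: of 50 loci changed by a log2 of 0.5, 1, 2 or 3 it recovered 48%, 72%, 84% and 88%, with 5 false calls, at levels higher than most pseudogenes have. Only 50 of 10091 loci were changed at each size, whereas 33.3% of loci were called in the data. The adjustment depends on that share, so these rates do not give the recovery in the data. Depth was read from values at loci of 60, 61 and 62 bp, of which 100% were whole multiples (within 0.02) of 1 read. Confidence bounds cover counting error only.

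GENCODE 29 (GRCh38) was matched by Ensembl identifier; blastn 2.17.0 found coding matches, and 50-base stretches were searched in 206694 transcripts on both strands, and 1 set of sequences is not reported here. Python 3.11.15, pandas 2.3.3 and numpy 2.4.6 were used.

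The pseudogenes, the families by symbol and the tests were chosen with earlier results of these data known. Named are the 10 of highest mean, the 12 largest called rises and falls without overlap or a 0, and the 3 loci on each side of the limit. Up to 4 called members of each family (or the 2 highest) are named as well. So are pseudogenes whose best coding match is named and tested in the files, and up to 8 that overlap a named locus. Others were named after their values were seen, to complete the copies of 1 gene or as single notable values. Alternatives covered the pseudocount, filter, scaling, variance trend, replicate block, each library left out, and subsets of the loci.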

Additional observations from a re-analysis of the deposited data

How the results depend on the processing

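All 53 called pseudogenes kept their direction in every fit that tested them. Much of this was fixed in advance, so it is no measure of robustness. The replicate block and the fit without a variance trend leave the log2 difference as it is. Leaving out 1 library cannot turn its sign where the groups do not overlap. At a pseudocount of 0.1, 49 kept their call, at 0.5 it was 50, with libraries scaled by the median of ratios 52, and without a variance trend 52. Without the filter on low FPKM, 16 pseudogenes were higher and 3 lower, and 788 and 1083 of all loci. With libraries rescaled to the same total, 22 and 5 pseudogenes and 678 and 623 of all loci were called. Quantile normalization gave 25 higher pseudogenes and a median log2 difference of 0.00. A limit of 1 FPKM in all 4 libraries left 146 pseudogenes, of which the main fit called 27 higher and 8 lower. All 35 kept their call under that limit and 5 more were called, with 9 lower. Leaving out any 1 library gave between 0 and 0 calls, higher or lower, for the pseudogenes and for all loci, with 3627 to 3815 loci at an unadjusted p under 0.05 (limma). The lone library of a group is then assumed to vary like the other group. With the replicate number as a block, limma called 0 pseudogenes and 0 loci in either direction, with 69 pseudogenes and 3820 loci at an unadjusted p under 0.05. The labels do not say that the numbers pair libraries, and deviations of same-numbered libraries had a correlation of 0.04. Among subsets, the pseudogenes of at least 1000 bp held 13 higher and 5 lower, and subsets chosen after seeing the data gave 9 lower without ribosomal protein matches, and 18 higher and 4 lower with under 10% shared stretches; these hold fewer loci. For the other changes the cause was not tested. Precision is limited by 2 libraries per group. Read as counting error, the intervals also imply few fragments, a mean under 20 at 52 of the 230 pseudogenes.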

Other observations

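At 11 of the 230 pseudogenes at least 1 library was listed at 0. At 5 of them the zeros fell in 1 library of each group with the same replicate number. AC092299.7 had 6.97, 0, 7.49 and 0 FPKM, HTATSF1P2 had 6.22, 0, 6.00 and 0 FPKM, and GSTM3P1 had 1.10, 0, 1.21 and 0 FPKM. AC009237.11 had 0, 4.66, 0 and 8.29 FPKM and AC006989.2 had 0, 2.13, 0 and 2.40 FPKM. At AC090571.1 (0, 1.25, 1.75 and 4.08 FPKM) the log2 difference was 1.32 with an adjusted p of 0.195. A value of 0 in these files can be a failed estimate, and its part here was not tested.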
